A study of Homo sapiens with 35 samples.

Results

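The genes described here are 31 human genes of cell adhesion, comprising 18 integrin subunits, 10 proteins of the focal adhesion plaque and 3 adhesion molecules of the immunoglobulin superfamily. They were chosen by symbol from general knowledge of the pathway, with earlier results of these data known. All 31 were found among the 62649 distinct gene identifiers of the count table. Of these, 26 passed the filter on low counts and were tested, together with 16879 genes in all. *ITGA8*, *ITGA9*, *ITGB6*, *VCAM1* and *L1CAM* did not pass.

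The data came from U-87 MG, an established human glioblastoma cell line, in which the study asked how TWEAK acts through p52 and ETS1. TWEAK, a cytokine related to TNF, signals through its receptor Fn14, the product of *TNFRSF12A*, and starts the processing of p100, encoded by *NFKB2*, to the NF-κB subunit p52. The RNA-seq groups had 3 biological replicates each and were CRISPR control cells without TWEAK, CRISPR control cells with TWEAK, *ETS1* KD cells with TWEAK and *NFKB2* KD cells with TWEAK. ChIP-seq peak lists, 2 for each group, were available for p52 in untreated and TWEAK-treated control cells and in TWEAK-treated *ETS1* KD cells made with guide 1 or guide 2, for ETS1 in untreated and TWEAK-treated control cells, and for RNA Pol II in the same 4 groups as the RNA-seq. TWEAK was given at 10 ng/ml for 48 h, and no KD cells without TWEAK were measured. The control cells also carried CRISPR constructs, the KD cells were edited lines for which nothing in the sources used here says whether they were single clones, and the sample labels do not name the guide used for RNA-seq.

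Integrins are receptors made of an α and a β subunit that bind proteins of the extracellular matrix, such as collagens, laminins and fibronectin, and link them to the actin cytoskeleton. Inside the cell, talin and kindlin bind the β subunit tail and switch the receptor on, vinculin ties talin to actin, and kinases such as FAK and adaptors such as paxillin pass the signal on. ICAM1, VCAM1 and L1CAM are ligands of integrins on other cells. Glioma cells invade brain tissue with the help of these contacts.

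Counting depth ranged from 28384201 to 40192606 reads in genes per library. The targeted gene was lower in its own KD: *ETS1* had 71.9, 73.1 and 87.6 CPM (read counts scaled to library size) in TWEAK-treated control cells against 28.2, 33.0 and 37.8 in *ETS1* KD cells, and *NFKB2* had 235, 289 and 346 against 75.6, 92.6 and 105 in *NFKB2* KD cells. Markers of a mesenchymal glioma line were high, with *VIM* between 6610 and 12400 TPM (the same per gene length). *CDKN2A* and *CDKN2B*, which are deleted in U-87 MG, were at 0 in every library. The 5 leukocyte markers, *ITGB2* among them, summed to between 0.178 and 1.12 TPM. Libraries also differed in how counts followed the GC content of genes, with a slope between −0.148 and 0.257 on the log2 scale per 10 percentage points of GC. The steepest slopes were in untreated control replicate 3 (0.219) and *NFKB2* KD replicate 2 (0.257). Replicates of some members were far apart. *ZYX*, which encodes the actin adaptor zyxin, has a GC content of 63.5% and had 124, 121 and 284 CPM in untreated cells, 105, 267 and 280 CPM in TWEAK-treated control cells, 245, 124 and 263 CPM in *ETS1* KD cells and 137, 190 and 258 CPM in *NFKB2* KD cells. Its replicates differed by up to 2.66 times, those of *BCAR1*, with a GC content of 63.6%, by at most 1.6 times, and those of *ILK*, with 54.2%, by at most 1.24 times. *ZYX* was highest in replicate 3 of every group. Among untreated libraries this replicate also had the highest slope (0.219), and so it did among TWEAK-treated control libraries (0.0334). For *ETS1* KD its slope was 0.0107, below that of replicate 1 (0.0815). For *NFKB2* KD its slope was −0.017, below that of replicate 2 (0.257). Over the 26 tested members, which share these libraries, GC content and the spread within groups had a Pearson correlation of 0.384, given as a description. The part of the GC trend in any result was not tested beyond the correction in the closing section.

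Levels between genes were compared per length, as TPM over the merged exons of each gene, which understates genes whose main transcript is much shorter than the merged exons, such as *ITGAV*. In bulk RNA, fewer cells of a type and less RNA per cell cannot be told apart. Of the 31 members, 9 had a mean over all libraries above 100 TPM, 14 between 1 and 100 TPM and 8 under 1 TPM. Among the α subunits, *ITGA3*, which encodes a laminin receptor subunit, was the highest with 946 ± 275 TPM (SD, n = 3) in untreated cells and 852 ± 233 TPM in TWEAK-treated control cells. *ITGA5*, the α subunit of the classical fibronectin receptor, followed with 360 ± 102 and 331 ± 97.4 TPM, and its range over all libraries (228 to 478 TPM) did not meet that of *ITGA3* (574 to 1290 TPM). *ITGA2*, of a collagen receptor, *ITGAV*, which pairs with several β subunits, and *ITGA7*, of a laminin receptor, came next at means over all libraries of 72.4, 35.6 and 29.1 TPM, with ranges that overlapped. Among the β subunits, *ITGB1*, the partner of most α subunits here, had a mean of 232 TPM, *ITGB5* had 119 TPM and *ITGB3* had 67.5 TPM. The ranges of these β subunits (181 to 276, 92.5 to 158 and 47.2 to 91.3 TPM) did not overlap. In the plaque, *TLN1* (talin), *ZYX*, *ILK* (integrin-linked kinase) and *PXN* (paxillin) had means of 292, 232, 213 and 182 TPM with overlapping ranges, *VCL* (vinculin) had 111 TPM, and *LIMS1*, *BCAR1*, *PARVA*, *PTK2* (FAK) and *FERMT2* (kindlin-2) had 15.4 to 44.2 TPM. *ICAM1* was the only immunoglobulin-type member above 1 TPM, with a mean of 14.6 TPM.

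**Figure D1:**
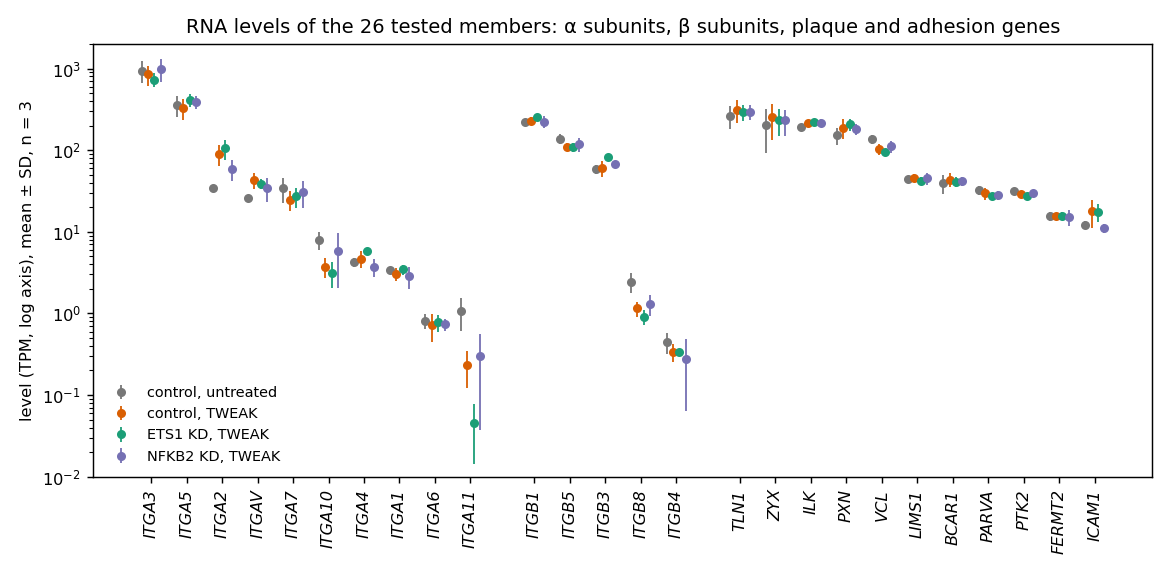
RNA level in TPM (log axis) of the 26 tested members, as mean ± SD of 3 libraries in each of the 4 groups, ordered by level within α subunits, β subunits and the remaining genes. *ITGA3* stood highest, and the group means of most members lay close together, while those of *ITGA2*, *ITGB8* and *ITGA11* were spread apart.

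The members that did not pass the filter were near the limit of counting. *ITGA8* had 0 counts in all 12 libraries, and *ITGA9*, *ITGB6*, *VCAM1* and *L1CAM* had 12, 13, 31 and 33 counts in total. A count of 0 in a library allowed up to 3 counts, which is 0.0747 to 0.108 CPM at these depths and covers counting error only. Differences in these genes were not detectable at this depth.

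After TWEAK, 1 of the 26 tested members rose and 1 fell at an adjusted p under 0.05 (edgeR quasi-likelihood test, adjusted over all 16879 genes), where 3.08% of all tested genes were called (1.55% up and 1.53% down). The member that rose was *ITGA2*, which encodes the α2 subunit of the α2β1 collagen and laminin receptor, and the member that fell was *ITGB8*, which encodes the β8 subunit of an integrin that binds latent TGF-β. The other 24 did not pass. The median log2 fold change of the members was −0.05, beside 0.02 over all tested genes, and 13 of the 26 values were positive. In 17 of the 26, the 95% interval of the change lay within a 2-fold change in either direction. At an unadjusted p under 0.05 there were 7 members, beside 14.7% of all tested genes.

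*ITGA2* had 72.8, 75.5 and 67.0 CPM in untreated cells and 162, 159 and 243 CPM in TWEAK-treated control cells. Under TWEAK it had 158, 254 and 275 CPM in *ETS1* KD cells and 148, 83.6 and 132 CPM in *NFKB2* KD cells. Every TWEAK-treated library was thus above every untreated one, and the 3 *NFKB2* KD libraries were all below the 3 TWEAK-treated control libraries. The log2 fold change with TWEAK was 1.39 (SE 0.25, 95% interval 0.86 to 1.92, adjusted p = 0.00872), and the call held in every alternative run. The gene lies on the plus strand of chromosome 5 (hg38, 52989340 to 53094779). It overlaps the antisense gene *ITGA2-AS1*, which had at most 4 counts in a library, against 2094 or more for *ITGA2*.

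*ITGB8* had 9.28, 12.6 and 7.28 CPM in untreated cells and 3.91, 4.38 and 5.44 CPM in TWEAK-treated control cells. It had 4.4, 2.97 and 3.97 CPM in *ETS1* KD cells and 3.62, 5.88 and 6.08 CPM in *NFKB2* KD cells. All TWEAK-treated libraries were below the lowest untreated one. The log2 fold change with TWEAK was −1.09 (SE 0.25, 95% interval −1.62 to −0.55, adjusted p = 0.0344). The call did not hold when only the 2 groups compared were fitted (adjusted p = 0.0526) or without untreated control replicate 1 (0.0974) or 2 (0.184), TWEAK-treated control replicate 1 (0.108), 2 (0.151) or 3 (0.0751), or *ETS1* KD replicate 1 (0.0521) or 3 (0.0532). The strand setting of the counting is not given in the sources used here, and the antisense gene *ITGB8-AS1*, with 1.11 to 1.25 CPM in untreated cells and 0.222 to 0.969 CPM in TWEAK-treated control cells, cannot be told apart from *ITGB8* where they overlap.

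Further members had groups that did not overlap but did not pass the test, and they are named here after their values were seen. Counting *ITGA2* and *ITGB8*, 3 members were higher in all TWEAK-treated control libraries than in any untreated one and 5 were lower, where 11% and 11.5% of all tested genes did so. *ITGAV* had 131, 142 and 127 CPM in untreated cells and 191, 200 and 267 CPM with TWEAK (log2 fold change 0.72, SE 0.20, adjusted p = 0.0849). *ITGA11*, the α subunit of a fibrillar collagen receptor, had 1.98, 2.74 and 4.41 CPM in untreated cells and 0.323, 0.921 and 0.750 CPM with TWEAK (log2 fold change −2.16, SE 0.57, adjusted p = 0.0665), which rests on 9 to 37 counts in the treated libraries. *ITGA10*, of another collagen receptor, had 10.4 to 16.2 CPM in untreated cells and 4.59 to 7.79 CPM with TWEAK (log2 fold change −1.09, SE 0.41, adjusted p = 0.216). *VCL* had 325 to 398 CPM before and 246 to 310 CPM with TWEAK (log2 fold change −0.38, SE 0.13, adjusted p = 0.173). *ITGB5* and *ILK* were the remaining pair. Both *ITGAV* (adjusted p from 0.000649 to 0.315 over the alternatives) and *ITGA11* (1.55e-09 to 0.212) passed under some alternatives, among them DESeq2 and the correction for GC content and length. *ITGA10* (2.74e-06 to 0.45) and *VCL* (0.0303 to 0.44) each passed under 2 of the 22 alternatives. The lowest values of *ITGA11* and *ITGA10* came from the edgeR run without the filter on low counts. For *ITGA11* the adjusted p was 0.00697 under DESeq2 and 0.0236 in edgeR with the GC and length correction.

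**Figure D2:**
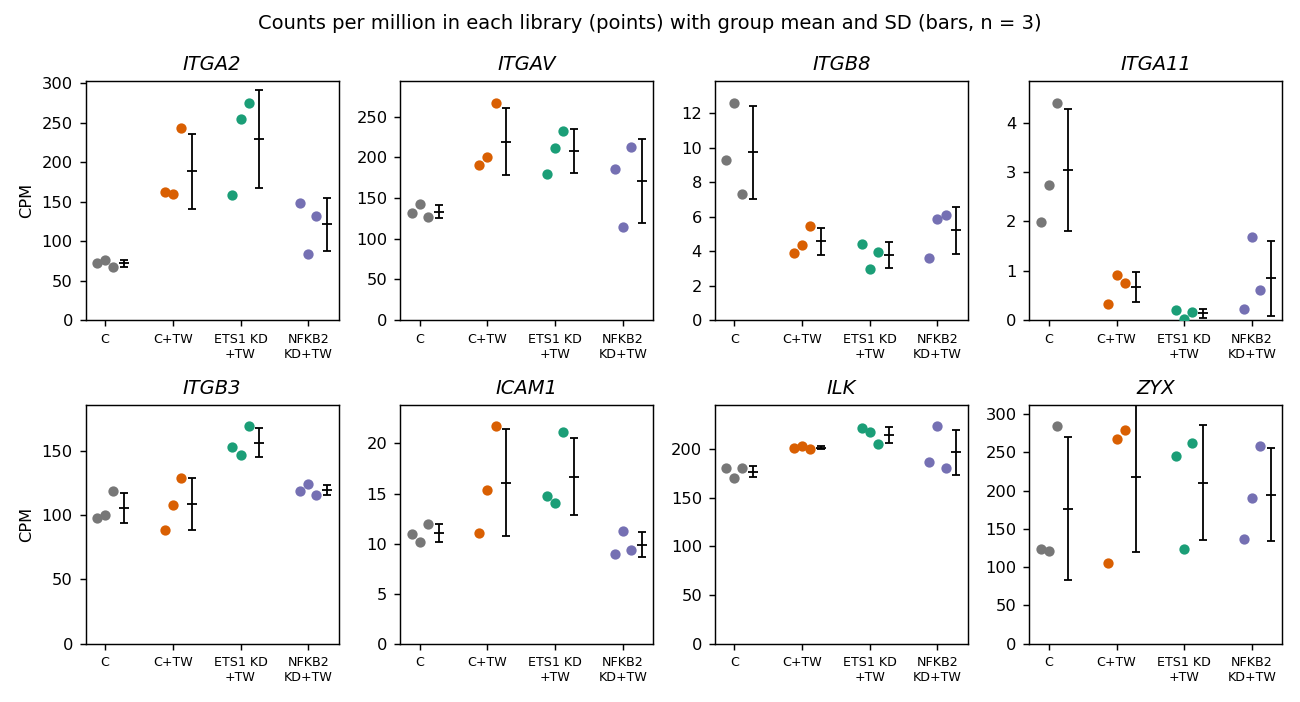
CPM of 8 members in each RNA-seq library (points, by group, with mean and SD of 3 libraries beside them). The untreated points of *ITGA2* lie below all others and those of *ITGB8* and *ITGA11* above all others, while the points of *ZYX* spread by up to 2.66 times within a group.

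None of the 9 members above 100 TPM passed the test with TWEAK in edgeR. *ZYX*, at 232 TPM, had a log2 fold change of 0.30 with an interval (−0.61 to 1.21) that includes a 2-fold change. Other members had narrower intervals. *ITGB1* had a log2 fold change of 0.06 (95% interval −0.21 to 0.32), *ITGA3* of −0.15 (−0.70 to 0.41) and *ITGB3* of 0.04 (−0.26 to 0.33). The kinase gene *PTK2* had −0.12 (−0.35 to 0.10), *FERMT2* had 0.01 (−0.33 to 0.35), *PARVA*, which encodes the ILK partner α-parvin, had −0.11 (−0.39 to 0.16), and *LIMS1*, the PINCH partner of ILK, had 0.04 (−0.24 to 0.32). For these 7 genes, from *ITGB1* to *LIMS1*, the intervals leave out a 2-fold change. *LIMS1* has near-identical copies, *LIMS3* and *LIMS4*, to which reads could be split, and these had at most 0.218 CPM. *ICAM1*, which encodes a ligand of leukocyte integrins and is a textbook NF-κB target, had 11, 10.2 and 12 CPM in untreated cells and 11.1, 15.4 and 21.7 CPM with TWEAK, so the groups overlapped (log2 fold change 0.54, SE 0.22, adjusted p = 0.276).

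*ETS1* KD and *NFKB2* KD were each compared with the same 3 TWEAK-treated control libraries. Of the 26 tested members, 0 passed in the *ETS1* KD comparison, where 1.39% of all tested genes were called (0.255% up and 1.13% down), and 0 passed in the *NFKB2* KD comparison, where 0.0296% were called (0.00592% up and 0.0237% down, edgeR). Likewise 0 members rose with TWEAK and fell with *ETS1* KD, as 0.124% of genes did, and 0 rose with TWEAK and fell with *NFKB2* KD, as 0.0237% did. At an unadjusted p under 0.05 there were 2 members in each comparison, beside 12% and 3.91% of all genes. DESeq2 called 2 members with *ETS1* KD, *ITGB3* and *ITGA11*, and 0 with *NFKB2* KD. It called more genes in all, 534 with *ETS1* KD and 36 with *NFKB2* KD, against 234 and 5 in edgeR. The 95% interval lay within a 2-fold change in either direction for 23 and 20 of the 26 members. The test itself recovered few small changes at this size. On simulated counts with 200 changed genes it found 8% of 1.5-fold and 43% of 2-fold changes for the *ETS1* KD comparison. The shares were 6% and 42% for the *NFKB2* KD comparison, and 13% and 52% for the TWEAK comparison. The simulated counts held no GC trend between libraries.

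With *ETS1* KD, 2 members were higher in all 3 libraries than in any TWEAK-treated control library and 1 was lower, where 9.57% and 10.8% of all tested genes did so. *ITGB3*, the β subunit of the αvβ3 receptor for vitronectin, had 88.3, 108 and 129 CPM in TWEAK-treated control cells and 153, 147 and 169 CPM in *ETS1* KD cells (log2 fold change 0.53, SE 0.14, adjusted p = 0.0923). *ITGA11* had 0.323, 0.921 and 0.750 CPM in TWEAK-treated control cells and 0.205, 0.0307 and 0.172 CPM in *ETS1* KD cells, the latter from 7, 1 and 6 counts (log2 fold change −2.28, SE 0.79, adjusted p = 0.232). *ILK* was the remaining member without overlap, at 201, 203 and 200 CPM against 221, 217 and 205 CPM (log2 fold change 0.09). *ITGA2* overlapped (log2 fold change 0.29, SE 0.24, adjusted p = 0.774).

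With *NFKB2* KD, 1 member was lower in all 3 libraries than in any TWEAK-treated control library and 0 were higher, where 3.82% and 3.05% of all tested genes did so. That member was *ITGA2*, with the values above (log2 fold change −0.63, SE 0.24, 95% interval −1.16 to −0.11, adjusted p = 1), whose lowest library was the replicate with the steepest GC trend. *ICAM1* had 8.95, 11.3 and 9.36 CPM against 11.1, 15.4 and 21.7 CPM in TWEAK-treated control cells and overlapped in a single library (log2 fold change −0.70, SE 0.22, adjusted p = 0.835). Both genes passed only with the thresholds of the study's methods (a 1.5-fold change with an unadjusted p no higher than 0.05), with *ITGA2* passing also without the filter on low counts.

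Between the KDs, 0 of the 26 members passed, where 1.94% of all tested genes were called (0.533% up and 1.4% down, edgeR). At an unadjusted p under 0.05 there were 6 members, beside 15.5% of all genes. DESeq2 called 4 members and 817 genes in all, against 327 genes in edgeR. The groups did not overlap for 5 members: *ITGA2*, *ITGB3*, *ICAM1* and *ITGA4* were higher in *ETS1* KD cells and *ITGA11* was lower, where 9.79% and 9.22% of all tested genes did so. *ITGA2* was 0.92 higher on the log2 scale (SE 0.24, adjusted p = 0.0784). *ITGA4*, of the receptor for VCAM1 and fibronectin, had 15.4, 17.8 and 18.2 CPM in *ETS1* KD cells and 11.6, 7.59 and 11.9 CPM in *NFKB2* KD cells (log2 difference 0.73, SE 0.19, adjusted p = 0.0735).

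**Figure D3:**
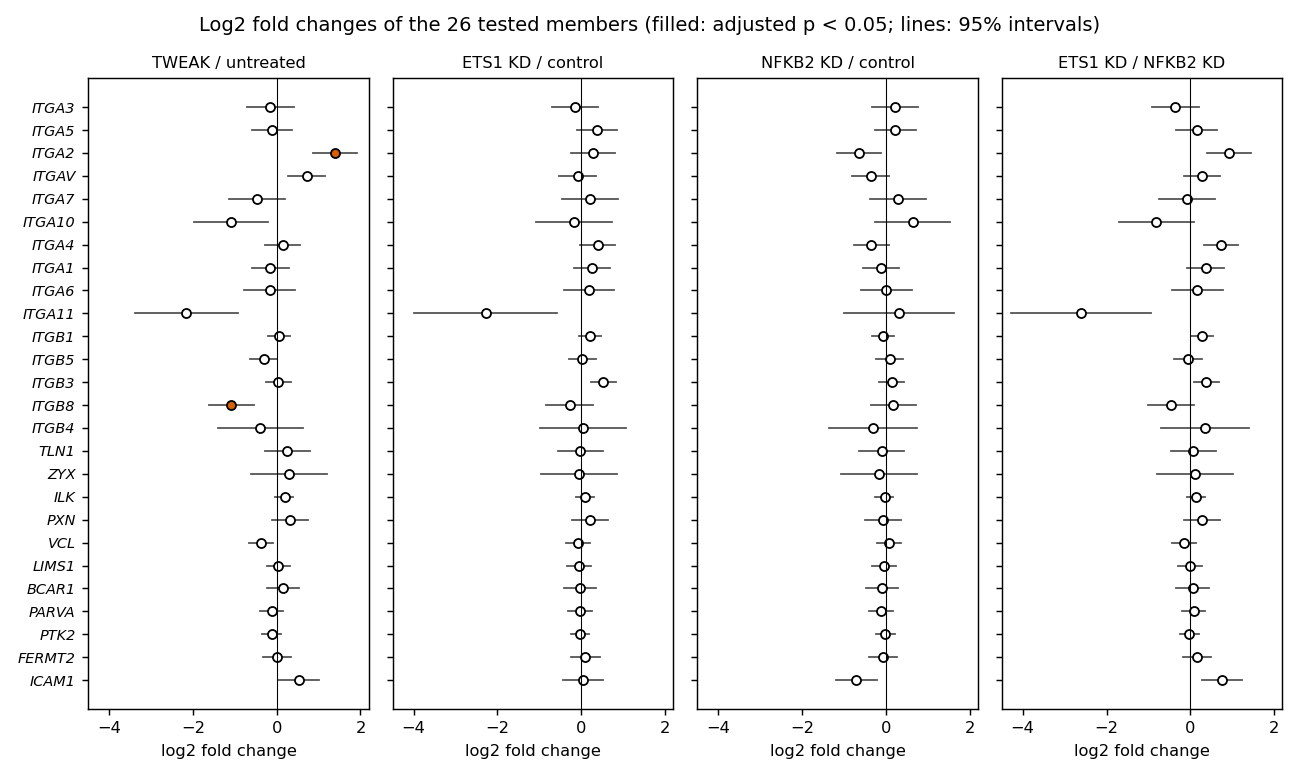
Log2 fold change (points) and 95% interval (lines) of the 26 tested members in the 4 RNA-seq comparisons, filled where the adjusted p was under 0.05. The filled points are *ITGA2* at 1.39 and *ITGB8* at −1.09 with TWEAK, and all other intervals belong to members that did not pass.

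Binding of p52 at the members was read from the peak lists. A site was a region with a peak in both replicates, and it was placed at the promoter where its strongest summit lay from 1000 bp upstream to 100 bp downstream of an annotated start site, or at the gene where it overlapped the gene or the 5 kb before it. With 2 lists in each group no test was made. Untreated control cells had 0 members with a p52 site, where 0.0178% of all tested genes had one at the promoter and 0.0533% at the gene. In TWEAK-treated control cells, 4 of the 31 members had a p52 site at the promoter, namely *ILK*, *ITGA5*, *ITGA7* and *TLN1*. All belonged to the 26 tested members (15.4%), where 3.38% of tested genes had one. Every annotated start site of a gene gave a promoter window, and the tested genes were not limited by gene type. The part of either in the promoter share was not tested. At the gene there were 11 members, adding *ITGA3*, *ITGA9*, *ITGA11*, *ITGB5*, *ITGB6*, *BCAR1* and *PTK2*, of which 9 belonged to the 26 tested members (34.6%), where 10.1% of tested genes had one. The tested members are longer, with a median span of 80.4 kb against 25.8 kb for all tested genes, and the part of length in this share was not tested. The second TWEAK list was longer, with 11761 peaks against 3579, and on its own it placed p52 at the promoter of 10 members.

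The sequences below show the letters under p52 at the promoter sites of *ILK*, *ITGA5*, *ITGA7* and *TLN1* and at the sites of *BCAR1* and *ITGA3* further inside the gene. All are read 5′ to 3′ on the plus strand of hg38, and capitals mark a match to the κB consensus, the ETS core AGGAAG or the AP-1 motif TGANTCA, on either strand. For *ILK*, *ITGA5*, *ITGA7* and *ITGA3*, whose windows touch exons, the κB match nearest to the summit is given with 10 bases on each side. For *BCAR1* and *TLN1* the 100 bases on each side of the summit are given. Such motifs are common: of the 2941 p52 sites in TWEAK-treated control cells, 74.1% held a κB match, 24.4% an ETS core and 24% an AP-1 motif in a window of 201 bp.
ILK, chr11:6603774-6603803: gcggccggacGGGAGTTCCCcggagaagga
ITGA5, chr12:54419709-54419738: ccggccaactGGGATTCCCCcttgccttcc
ITGA7, chr12:55716528-55716557: gagggtgtggGGAACCCCCCagagatgggc
ITGA3, chr17:50090393-50090422: tactgtagcaGGGGAATTCCctccccctcc
TLN1, chr9:35732386-35732586: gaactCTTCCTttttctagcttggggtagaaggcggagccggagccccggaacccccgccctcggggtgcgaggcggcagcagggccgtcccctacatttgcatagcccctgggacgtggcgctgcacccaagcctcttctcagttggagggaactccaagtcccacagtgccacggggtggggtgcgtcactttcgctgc
BCAR1, chr16:75245257-75245457: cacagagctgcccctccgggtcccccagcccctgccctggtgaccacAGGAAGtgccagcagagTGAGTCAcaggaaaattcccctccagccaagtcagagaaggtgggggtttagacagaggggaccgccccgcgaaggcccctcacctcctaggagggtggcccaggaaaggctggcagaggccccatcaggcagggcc

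At *ILK*, the strongest summit (6603788) lay 14 bp downstream of the MANE start site, and the κB match covers it. The authors' fold enrichment at the peak was 11.2 and 25 in the TWEAK-treated control lists, where the peaks ranked 851 and 717 by q-value. The summit also lies in the promoter window of *RRP8*. *ILK* RNA was 180, 170 and 180 CPM in untreated cells, 201, 203 and 200 CPM in TWEAK-treated control cells, 221, 217 and 205 CPM in *ETS1* KD cells and 187, 223 and 180 CPM in *NFKB2* KD cells. The TWEAK-treated control libraries were all higher than the untreated ones, by little (log2 fold change 0.19, SE 0.10, adjusted p = 0.432).

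At *ITGA5*, the summit (54419740) lay at −474 bp from the start site, with a fold enrichment of 5.94 and 12.5. *ITGA5* RNA was 586, 593 and 910 CPM in untreated cells, 461, 674 and 792 CPM in TWEAK-treated control cells, 847, 694 and 957 CPM in *ETS1* KD cells and 640, 901 and 713 CPM in *NFKB2* KD cells. These groups overlapped, and the sign of its log2 fold change with TWEAK (−0.12, SE 0.22, adjusted p = 0.886) turned when single libraries were left out. At *ITGA7*, the summit (55716576) lay at −172 bp from an annotated start site but at −8672 bp from the MANE one, in promoter windows that include that of *BLOC1S1*, with a fold enrichment of 7.60 and 18.2. *ITGA7* RNA was 65.9, 66.5 and 112 CPM in untreated cells, 41.7, 66.8 and 67.7 CPM in TWEAK-treated control cells, 84.3, 47.9 and 71.5 CPM in *ETS1* KD cells and 46.7, 99.9 and 69.0 CPM in *NFKB2* KD cells. Its groups overlapped as well (log2 fold change with TWEAK −0.47, SE 0.31, adjusted p = 0.555).

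At *TLN1*, a promoter summit (35732486) lay at −291 bp from the start site, in the promoter window of *CREB3* too, and a further p52 site lay in an intron (summit 35728520). Neither window held a κB match. The promoter peaks of the TWEAK-treated control lists (35732325 to 35732790 and 35732297 to 35732930) do span a κB match outside that window. In *ETS1* KD cells of guide 2 the promoter peak had its strongest summit at 35732655, where this κB match covers the summit. It is shown here and was picked after the windows were seen.
TLN1, chr9:35732642-35732671: agccgccggcGGGGAATCCCggccgtagag
*TLN1* RNA was 536, 601 and 919 CPM in untreated cells, 558, 888 and 1000 CPM in TWEAK-treated control cells, 808, 635 and 969 CPM in *ETS1* KD cells and 635, 770 and 886 CPM in *NFKB2* KD cells. The groups overlapped (log2 fold change with TWEAK 0.25, SE 0.25, adjusted p = 0.734). For the 4 genes with a p52 promoter site, the log2 fold changes with *ETS1* KD were 0.09 (*ILK*), 0.37 (*ITGA5*), 0.21 (*ITGA7*) and −0.02 (*TLN1*), and with *NFKB2* KD −0.03, 0.23, 0.29 and −0.10, and none passed the test in edgeR or DESeq2.

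The p52 peaks with the highest fold enrichment at the members were in introns, although by q-value the *ILK* promoter peak ranked above that of *BCAR1* in the first list. *PTK2* had one 210347 bp downstream of its MANE start (fold enrichment 17.0 and 35.3, ranks 422 and 414), and *BCAR1*, which encodes the FAK and Src substrate p130Cas, had one 6267 bp downstream of its MANE start (12.6 and 35.2, ranks 970 and 601). The *BCAR1* window holds an ETS core and an AP-1 motif and no κB match. *PTK2* RNA was 101 to 120 CPM and *BCAR1* RNA 76.7 to 122 CPM over the untreated and TWEAK-treated control libraries, and neither passed the test. *ITGA9* and *ITGB6*, each with an intronic p52 site, had at most 3 and 5 counts in any RNA-seq library.

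In TWEAK-treated *ETS1* KD cells, p52 sites at the promoter were found for 2 members with guide 1 (*ILK* and *BCAR1*) and for 4 with guide 2. These were 7.69% and 15.4% of the 26 tested members, beside 1.44% and 3.51% of tested genes. The guide 2 members were *ILK*, *ITGA5*, *ITGA7* and *TLN1*, as in control cells. The guide 1 promoter site of *BCAR1* (fold enrichment 5.91 and 5.82) was not the intronic site above. It lay 96 bp downstream of an annotated start site but at −12696 bp from the MANE one. In TWEAK-treated control cells, replicate 2 alone had a p52 peak in a promoter window of *BCAR1*. At the gene, 3 members had a site with guide 1 and 8 with guide 2. Of the tested members 11.5% and 26.9% had one, beside 4.50% and 10.3% of tested genes. Guide 1 had the fewest sites of the TWEAK-treated p52 groups, with 1305 sites in both replicates against 3068 for guide 2 and 2941 for control cells. The site at *ILK* was present in all 6 TWEAK-treated p52 libraries. In guide 1, replicate 2 alone had peaks at the promoters of *ITGA5*, *ITGA7* and *TLN1*.

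ETS1 sites lay at the promoter of 2 members in untreated cells, *ITGAV* and *ZYX*, and of 3 in TWEAK-treated cells, *ITGA4*, *ITGB5* and *ITGB8*. These were 7.69% and 11.5% of the 26 tested members, beside 4.08% and 5.99% of tested genes. At the gene there were 4 members before and 5 after TWEAK (15.4% and 19.2% of the tested members, beside 6.84% and 9.34% of tested genes). The −log10 q-values of these peaks ranged from 2.48 at *ITGB8* to 49.5 at *ITGB3*. With only peaks of at least 5 in both replicates, 1 member kept a promoter site in untreated cells and 0 in TWEAK-treated cells. The *ITGB8* summit lay 404 bp downstream of the MANE start. *ZYX* had an ETS1 promoter peak in each TWEAK-treated library, but these did not overlap. *ITGAV* kept an ETS1 site with TWEAK, with its strongest summit 132 bp downstream of the nearest start site, outside the promoter window. In untreated cells *ITGB8* had promoter peaks in replicate 1 alone, and *ITGB5* had a site in an intron 734 bp downstream of the MANE start. The strongest ETS1 site of a member was at *ITGB3*, in an intron 406 bp downstream of the MANE start in untreated cells and 398 bp in TWEAK-treated cells, with a fold enrichment of 12.2 and 6.79 before and 12.4 and 12.1 after TWEAK, present in all 4 ETS1 libraries. *ITGB3* RNA had 97.6, 100 and 119 CPM in untreated cells beside the TWEAK-treated values given above.

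*ITGA2* and *ICAM1* had no p52 or ETS1 peak at the gene in any library. The nearest p52 site of TWEAK-treated control cells lay 222.8 kb downstream of the *ITGA2* start site, and the nearest ETS1 site 490.7 kb downstream. For *ICAM1* the nearest p52 site lay 5.6 kb upstream of the start site, just outside the span counted as the gene, and was found in TWEAK-treated control cells and in *ETS1* KD cells of guide 2, with a peak in replicate 2 alone of guide 1. Absence from these lists says that no peak passed the authors' threshold there.

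**Figure D4:**
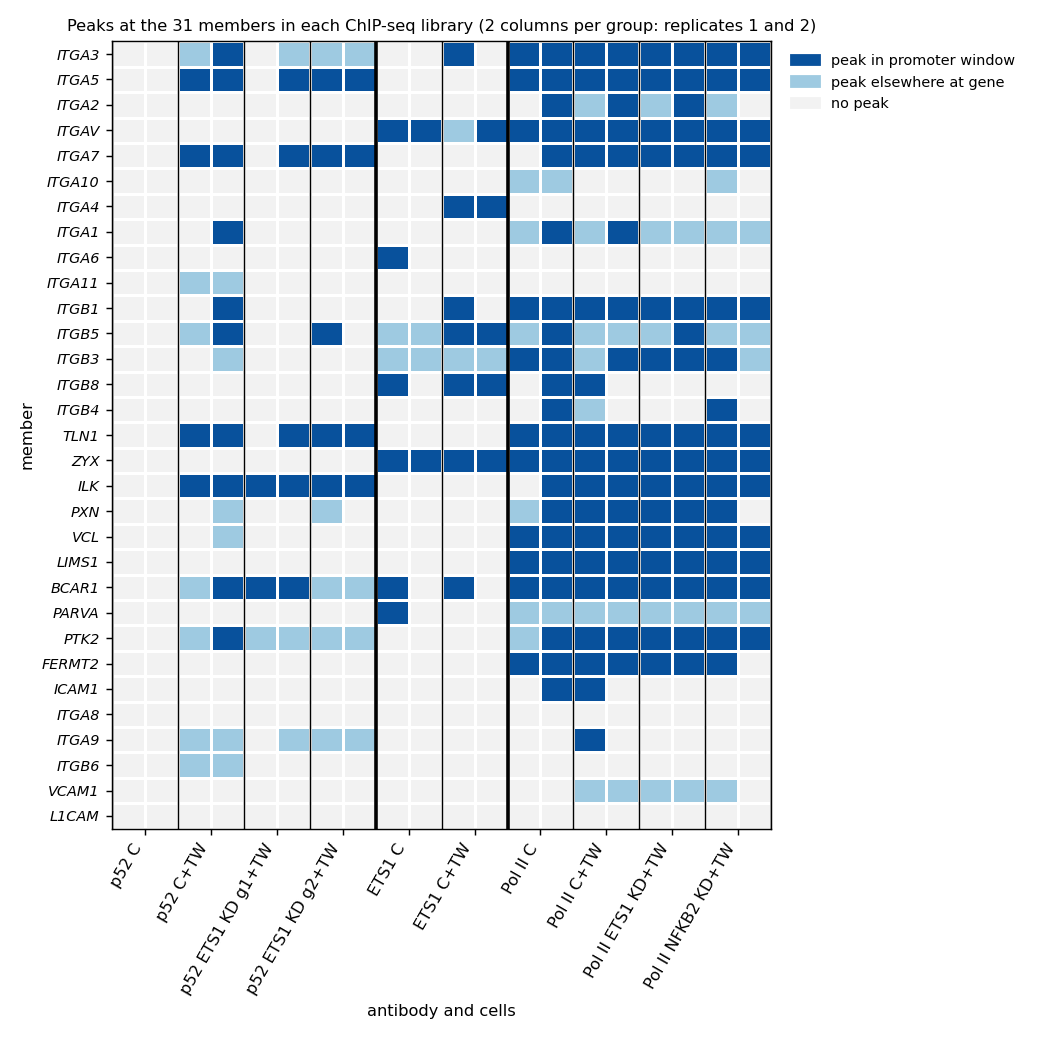
Peaks at the 31 members in each of the 20 ChIP-seq libraries, with dark cells for a peak in the promoter window, light cells for a peak elsewhere at the gene and grey cells for none. The p52 columns of untreated cells hold 0 members, *ILK* is dark in all 6 TWEAK-treated p52 columns, and the RNA Pol II columns differ between replicates as well as between groups.

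RNA Pol II sites lay at the promoter of 11 of the 31 members in untreated cells and 16 in TWEAK-treated control cells. There were 16 in TWEAK-treated *ETS1* KD cells and 12 in TWEAK-treated *NFKB2* KD cells. In this order they were 42.3%, 61.5%, 61.5% and 46.2% of the 26 tested members, beside 41.4%, 51.5%, 43.6% and 39.3% of tested genes. At the gene the members numbered 17, 20, 20 and 16 in the same order. Of the tested members 65.4%, 73.1%, 73.1% and 61.5% had such a site, beside 52%, 62.8%, 54.5% and 47.4% of tested genes. The member counts moved as much between replicates. The untreated lists had 11 and 21 members with a promoter peak. The *NFKB2* KD lists had 16 and 12, the latter from the shortest list of 11175 peaks. The members with a promoter site in every group were *ITGA3*, *ITGA5*, *ITGAV*, *ITGB1*, *TLN1*, *VCL*, *ZYX*, *LIMS1* and *BCAR1*. Of the 9 members above 100 TPM, *ILK*, *PXN* and *ITGB5* were not among them.

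Along *ITGA2*, RNA Pol II peaks numbered 0 and 4 in the untreated libraries, 6 and 10 in the TWEAK-treated control libraries, 9 and 11 in the *ETS1* KD libraries and 5 and 0 in the *NFKB2* KD libraries. They covered 0 and 1139 bp in untreated cells, 1753 and 2368 bp in TWEAK-treated control cells, 3276 and 3532 bp in *ETS1* KD cells and 2561 and 0 bp in *NFKB2* KD cells. The libraries with 0 peaks were the shorter list of their own pair, with 24848 and 11175 peaks, and the part of list length was not tested. *VCAM1*, with at most 9 counts in any RNA-seq library, had an RNA Pol II peak at the gene in 5 of the 6 TWEAK-treated libraries and in 0 untreated ones.

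**Figure D5:**
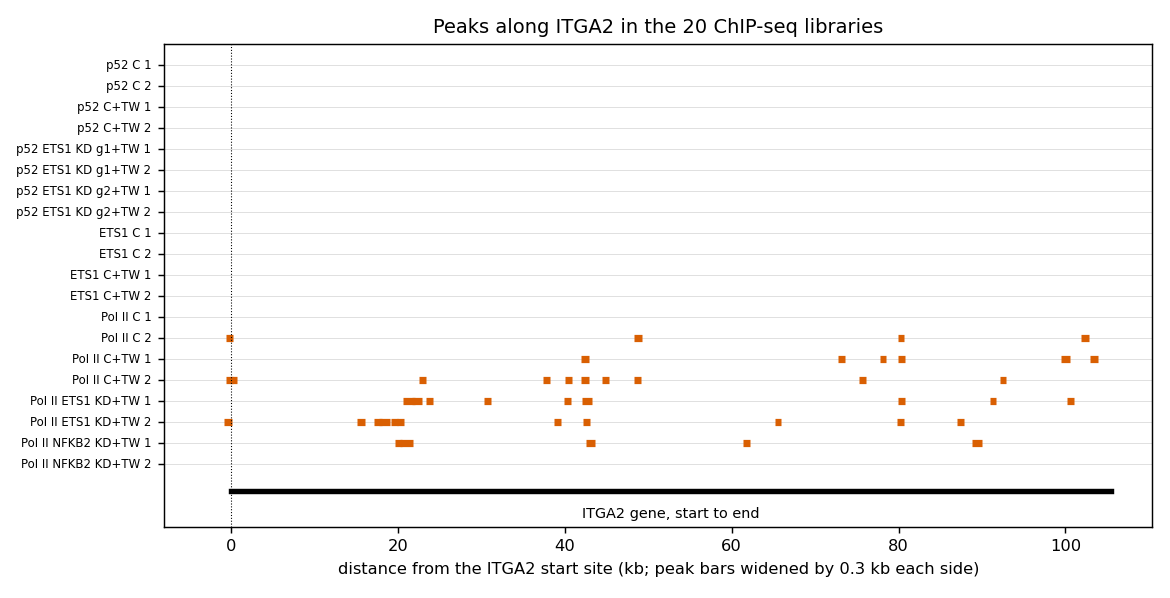
Peaks along *ITGA2* in the 20 ChIP-seq libraries, by distance from its start site in kb, with 1 line for each library. No p52 or ETS1 peak is drawn, and RNA Pol II peaks number 0 and 4 in untreated cells, 6 and 10 in TWEAK-treated control cells, 9 and 11 in *ETS1* KD cells and 5 and 0 in *NFKB2* KD cells.

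Other genes of the pathway were followed in 6 lists chosen from general knowledge, with earlier results of these data known. Of the other integrin subunits, mostly those of leukocytes, 5 of 8 were tested, and with TWEAK 1 rose and 0 fell, where 1.55% of all tested genes rose and 1.53% fell. It was *ITGAM*, the αM subunit of a leukocyte integrin, with 1, 1 and 0 counts in untreated cells and 22, 40 and 54 counts in TWEAK-treated control cells. The ratio of the summed counts was 52 after scaling, with an exact 95% counting interval of 14.1 to 435 (edgeR adjusted p = 0.000193). It had 33, 31 and 36 counts in *ETS1* KD cells and 46, 56 and 63 in *NFKB2* KD cells, so all TWEAK-treated libraries were above the untreated ones, at a level of at most 1.91 CPM. *ITGB2*, which encodes its β partner, had at most 4 counts in a library.

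Among the integrin ligands of the extracellular matrix, 32 of 37 were tested, and with TWEAK 1 rose and 2 fell (1.55% and 1.53% of all tested genes), with a list median of −0.26 beside 0.02 for all tested genes. *CCN1*, a matricellular ligand of αvβ3, had 7.61, 6.85 and 6.78 CPM before and 14.6, 18.2 and 16.1 CPM after TWEAK (log2 fold change 1.21, SE 0.17, adjusted p = 0.00174). *LAMA4*, a laminin chain, went from 18.3 to 19.9 CPM down to 9.15 to 10.8 CPM (−0.97, SE 0.12, adjusted p = 0.000733), and *EDIL3*, another αv ligand, fell by 0.65 on the log2 scale. With *ETS1* KD, where 1.39% of all tested genes were called, 1 rose, the basement membrane collagen *COL4A2*, from 5.31, 6.05 and 6.19 CPM to 10.7, 12.1 and 11.1 CPM (log2 fold change 0.95, SE 0.19, adjusted p = 0.0301), and 0 fell. With *NFKB2* KD, 0 of the 32 passed, where 0.0296% of all tested genes were called.

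Of the other focal adhesion adaptors and actin linkers, 33 of 39 were tested. With TWEAK 1 rose and 2 fell, where 1.55% of all tested genes rose and 1.53% fell. The paxillin relative *LPXN* rose (log2 fold change 0.62, adjusted p = 0.0122), and the talin-binding *KANK1* was among those that fell (−0.83, adjusted p = 0.0313). With either KD against control 0 passed, where 1.39% (*ETS1* KD) and 0.0296% (*NFKB2* KD) of all tested genes were called. Of the kinases and GTPase regulators, such as *SRC*, *RHOA* and *RAC1*, all 25 were tested and 0 passed in any of the 4 comparisons, where 3.08% (TWEAK), 1.39% (*ETS1* KD), 0.0296% (*NFKB2* KD) and 1.94% (between the KDs) of all tested genes were called. With TWEAK all 25 had a 95% interval within a 2-fold change. Of the other immunoglobulin-type adhesion molecules, 16 of 19 were tested, and with TWEAK, where 1.55% of all tested genes rose and 1.53% fell, 3 rose (*CADM1* by 1.62, *NRCAM* by 1.20 and *NCAM1* by 0.63 on the log2 scale) and 1 fell (*MCAM*, by 0.59). *NCAM1*, the neural cell adhesion molecule, had 27.5 to 30.5 CPM in untreated cells, 44.8 to 45.5 CPM in TWEAK-treated control cells and 31.3 to 34.0 CPM in *ETS1* KD cells, and it fell with *ETS1* KD (log2 fold change −0.45, SE 0.10, adjusted p = 0.0454). It had 31.2 to 36.3 CPM in *NFKB2* KD cells, a change of similar size that did not pass (log2 fold change −0.43, SE 0.10, adjusted p = 0.455). Between the KDs its log2 difference was −0.03 (SE 0.10). Of the 12 integrin partners in the membrane, all tested, the tetraspanin gene *CD82* (log2 fold change 0.87, SE 0.15) and the urokinase receptor gene *PLAUR* (0.69, SE 0.11) rose with TWEAK and 0 fell, beside the same shares.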

How the data were processed

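RNA-seq counts per gene were made by the authors and deposited unnormalised for 12 libraries. The strand setting of the counting is not given in the sources used here. ChIP-seq peak lists were called by the authors per library with MACS2 on hg38 against input, and each deposited peak carries a fold enrichment (a ratio) and a −log10 q-value. Read depth of the ChIP libraries is unknown, and 3 inputs had no list used here. The members and gene lists were chosen with earlier results of these data known. Counts were tested with edgeR 4.0.16 in R 4.3.3 (TMM scaling, filterByExpr, quasi-likelihood test over the 4 groups in 1 model, Benjamini-Hochberg adjustment over 16879 genes, threshold 0.05). CPM are counts scaled to library size by TMM, and TPM use merged exon lengths of GENCODE 44. P-values measure the spread between 3 libraries a group. Values in every library were given for members with an adjusted p under 0.05 and an absolute log2 fold change of at least 1 with TWEAK or a KD, called with TWEAK and a KD, or with a p52 promoter site in TWEAK-treated control cells; of other lists at most 3 called genes a comparison were named, *MCAM* excepted. Other members, the second *TLN1* sequence and genes without a call were picked after their values were seen. Set tests were not run. Alternatives were DESeq2 1.42.0, no filter, 1 CPM, the study's thresholds, only the groups compared, GC and length correction, a replicate block, each library left out, and, chosen after seeing the data, the 2 libraries with the steepest GC trend left out. For peaks they were either replicate, a −log10 q-value of at least 5 and a wider promoter. The test was tried on simulated data with 200 changed genes. The *ITGAM* counting interval and the floors cover counting error only. Intervals of log2 fold changes come from the edgeR fit and include the spread between libraries. A further called gene of the adaptor list is not reported here.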

Additional observations from a re-analysis of the deposited data

Results flagged for a closer look

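In 3 genes of the wider pathway lists the effects of the KDs differed from each other by a direct test (edgeR, adjusted over all genes). They were 2 of the 32 tested matrix ligands and 1 of the 33 tested adaptors, where 1.94% of all tested genes were called. In the remaining lists 0 passed. *COL4A2* was 1.06 higher on the log2 scale in *ETS1* KD than in *NFKB2* KD cells (SE 0.19, adjusted p = 0.0152), in 3 of 3 libraries. *CCN1* was 0.71 higher (SE 0.16, adjusted p = 0.0452), with 18.7, 15.7 and 23.5 CPM against 11.4, 10.2 and 13.7 CPM. *TNS3*, which encodes the adaptor tensin-3, had a log2 difference of −0.63 (SE 0.14, adjusted p = 0.039), with 20.6, 17.8 and 20 CPM against 23.6, 35.7 and 31.4 CPM.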

How the results depend on the processing

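*ITGA2* rose with TWEAK in all 22 alternatives (log2 fold change 1.16 to 1.5, adjusted p 6.54e-15 to 0.0437), and *ITGB8* kept its direction in all 22 and its call in 14. Counts of called members and genes moved more, and the cause was not tested. With TWEAK, the 1 member that rose became 2 under DESeq2, no filter, the study's thresholds, only the 2 groups, GC and length correction and without the 2 libraries of steepest GC trend (chosen after seeing the data), and 3 with the replicate block and GC correction together. The 1 that fell became 2 under DESeq2, GC correction and without the steepest libraries, and 3 with no filter, the study's thresholds, the block, and the block with GC correction. Leaving out single libraries gave 1 to 2 and 0 to 2. All called genes (520) became 940 (DESeq2), 859 (no filter), 1197 (study's thresholds), 940 (GC correction), 1440 (block with GC correction) and 998 (without the steepest libraries), and 171 to 972 without single libraries.

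With *ETS1* KD, 0 members higher became 1 under DESeq2, no filter, the block, GC correction and without the steepest libraries, and 2 with block and GC correction; 0 lower became 1 under DESeq2, no filter and the study's thresholds, and single libraries left both at 0. All genes (234) became 534, 469, 957, 474, 724 and 547 under DESeq2, no filter, study's thresholds, GC correction, block with GC correction and without the steepest libraries, and 102 to 391 without single libraries. With *NFKB2* KD, 0 lower became 1 (no filter) and 2 (study's thresholds), and all genes (5) became 36, 87, 3 (1 CPM), 379, 2 (only 2 groups), 19 (block with GC correction) and 3 (steepest left out), and 2 to 4 without single libraries. Between the KDs, 0 higher became 3 (DESeq2, no filter, study's thresholds), 4 (GC correction) and 6 (block with GC correction), 0 lower became 1, 2, 1 and 1 (block with GC correction), each 0 to 1 without single libraries, and all genes (327) became 817, 781, 1244, 104 (only 2 groups), 834 and 1374, and 76 to 561. The replicate block alone gave 657, 252, 4 and 361 genes. *VCL* passed with TWEAK under the block (adjusted p = 0.04) and the block with GC correction (0.0303). The labels do not say whether same-numbered libraries were handled together. Of 18 same-numbered pairs 9 correlated above 0.1 (r −0.304 to 0.492), and the 36 other pairs ranged from −0.56 to 0.488. Pairs of replicate 3 were all positive (0.071 to 0.492), and those of replicates 1 and 2 took both signs. For 7 of 12 libraries the best correlation was with their own number. Whether the libraries were paired was not tested.

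Uncalled values changed sign. Without single libraries *TLN1* with *ETS1* KD ranged from −0.24 to 0.15 (0.03 and 0.11 also reversed) and was 0.01 with block and GC correction, and with *NFKB2* KD it ranged from −0.31 to 0.10 (0.04 also reversed). *ITGB3* with TWEAK ranged from −0.11 to 0.16 (−0.02 also reversed), *ITGA5* with TWEAK from −0.30 to 0.13 (0.07 also reversed) with 0.12 without the steepest libraries, *ILK* with *NFKB2* KD from −0.13 to 0.05 (0.03 also reversed), and *ITGA7* with *NFKB2* KD from −0.02 to 0.55 with −0.02 without the steepest libraries.

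Members with a site moved with the peak rule. In TWEAK-treated control cells p52 promoter members went from 4 to 10 with either replicate (4 to 10 by single lists; gene 11 to 16). ETS1 promoter members went from 2 to 6 (either) and 1 (q-value cut) untreated, 2 to 6 by single lists, and from 3 to 7, 0 and 5 (wider promoter) with TWEAK, 5 to 7 by single lists; gene members went from 4 to 8 and 2 (4 to 8), and from 5 to 9 and 2 (6 to 9). For guide 1 the counts were 5 and 1 at the promoter (2 to 5) and 8 at the gene (3 to 8), and for guide 2 the promoter count was 2 with the q-value cut (4 to 5; gene 8 to 10). RNA Pol II promoter members in untreated cells became 21 with either replicate (11 to 21; gene 17 to 23), and single lists gave 17 and 20 to 24 with TWEAK, 15 to 17 and 20 in *ETS1* KD and 12 to 16 and 16 to 22 in *NFKB2* KD cells. ChIP depth is unknown, and low RNA counts limit *ITGA11*.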
